A study of Mus musculus with 23 samples.

Results

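The genotype by diet interaction asked, gene by gene, whether deletion of Aldh7a1 from astrocytes went with the same expression difference in mice fed sulforaphane (SFN) as in mice fed the control diet. RNA-seq counts came from astrocytes of the cerebral cortex of male mice at postnatal day 70. cKOAstro mice carried 2 floxed Aldh7a1 alleles and 1 Slc1a3-CreER allele, in which the astrocyte gene Slc1a3 drives a recombinase that 4-hydroxytamoxifen (4-OHT, given at P3 and P4) switches on. ConAstro mice, Cre-negative littermates with the same floxed alleles, were injected too. SFN-fed ConAstro and SFN-fed cKOAstro mice received the SFN diet from weaning at P21, and the others a standard diet. The interaction was (SFN-fed cKOAstro minus SFN-fed ConAstro) minus (cKOAstro minus ConAstro), on the log2 scale: a value below 0 says that the genotype difference was lower on the SFN diet than on the control diet. It was fitted over 21 of the 23 libraries, with 7 cKOAstro, 4 ConAstro, 6 SFN-fed cKOAstro and 4 SFN-fed ConAstro libraries. The study's methods count animals as n for RNA-seq, so each library stands for 1 mouse; the labels themselves do not name the animals.

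Aldh7a1 encodes an aldehyde dehydrogenase of lysine breakdown, and its loss in people causes pyridoxine-dependent epilepsy. SFN, an isothiocyanate from cruciferous plants, blocks KEAP1, the protein that otherwise sends the transcription factor NRF2 to degradation, so that NRF2 can switch on antioxidant and detoxifying genes. An interaction differs from either effect alone: a gene that SFN raises equally in both genotypes has an interaction of 0, and a gene that deletion raises on one diet and lowers on the other has a large one. ACSA-2 beads, which bind an astrocyte surface protein, enriched the cells but do not make them pure, so vessel-wall and meningeal RNA can also be read in bulk libraries, in which fewer cells of a type and less RNA per cell cannot be told apart.

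The libraries were chosen by values. The libraries labelled SFN-fed ConAstro 1 and SFN-fed cKOAstro 2 were left out because 3 genes carried the opposite genotype's levels: Aldh7a1 was at 55.7 and 222 CPM (a count scaled to its library's size), Slc1a3 at 2100 and 4436, and Esr1, part of whose sequence is in CreER, at 20.0 and 0.533. In the libraries kept, Aldh7a1 was at 208 to 222 CPM in ConAstro and 177 to 225 in SFN-fed ConAstro, against 45.7 to 77.7 in cKOAstro and 43 to 58 in SFN-fed cKOAstro. The genotype groups therefore did not overlap for this gene on either diet. On the SFN diet the choice of libraries itself fixed this, while no library of the control diet was left out. Libraries held 74771451 to 391701247 gene counts, with all cKOAstro libraries (107847897 and up) deeper than all ConAstro libraries (84049525 and below). The library cKOAstro 2, labelled male, held the female-expressed RNA Xist at 1541 CPM, against 0.179 to 0.586 CPM in the other 6 cKOAstro libraries. Ddx3y, a gene of the Y chromosome, was at 0.0077 CPM in it (3 counts), against 88.4 to 106 CPM in those 6. Both genes thus read as female in this library, which was kept in the fit. Library names had 6 prefixes that were shared unevenly between groups: all 4 ConAstro libraries had 143, all 4 SFN-fed ConAstro libraries had 145 or 147, and cKOAstro had none of these 3. The 2 prefixes that SFN-fed cKOAstro shared with a ConAstro group were 143 (SFN-fed cKOAstro 1 and 7) and 147 (SFN-fed cKOAstro 3). What a prefix stands for is not given in the sources used here. The 5 libraries kept whose names start with Astro (cKOAstro 2 and 4, SFN-fed cKOAstro 4, 5 and 6) stood apart on the first principal component of expression, at 27.5 to 60.6 against at most 0.88 in the others, and all were in cKOAstro groups.

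Foxd1 and Wnt16 were named for this contrast with their values already known. To them come the 20 genes of smallest p in it with a mean of at least 1 CPM, 10 below 0, Foxd1 among them, and 10 above; their interaction values describe the choice and test nothing. Promoters of 4 genes are shown, since the contrast turns on these: Foxd1 and Wnt16, Hspa1a as one of the 2 largest values above 0 among the 20, and Nob1 as the gene whose groups were separated in all 4 comparisons. Each is the 250 bases before the RefSeq start (GRCm38.p6), 5′ to 3′ on the gene's strand. Capitals mark 2 motifs searched on both strands, the antioxidant response element core TGACNNNGC bound by NRF2 and the palindromic heat shock element core GAANNTTC.
Foxd1, chr13:98353995-98354244, plus strand: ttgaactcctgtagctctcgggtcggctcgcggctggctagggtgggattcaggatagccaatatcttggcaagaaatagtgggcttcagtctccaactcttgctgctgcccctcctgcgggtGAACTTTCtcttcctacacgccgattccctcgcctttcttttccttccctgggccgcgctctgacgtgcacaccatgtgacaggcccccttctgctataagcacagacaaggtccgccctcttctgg
Wnt16, chr6:22287977-22288226, plus strand: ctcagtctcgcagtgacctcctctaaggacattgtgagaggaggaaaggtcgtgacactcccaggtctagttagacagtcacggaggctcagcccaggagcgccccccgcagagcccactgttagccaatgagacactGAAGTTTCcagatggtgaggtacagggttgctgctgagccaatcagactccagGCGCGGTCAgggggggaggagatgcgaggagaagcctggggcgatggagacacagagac
Hspa1a, chr17:34972157-34972406, minus strand: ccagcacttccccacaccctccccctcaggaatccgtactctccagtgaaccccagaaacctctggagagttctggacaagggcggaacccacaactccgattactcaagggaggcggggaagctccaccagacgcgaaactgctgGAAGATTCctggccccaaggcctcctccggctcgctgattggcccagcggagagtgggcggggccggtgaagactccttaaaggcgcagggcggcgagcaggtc
Nob1, chr8:107425039-107425288, minus strand: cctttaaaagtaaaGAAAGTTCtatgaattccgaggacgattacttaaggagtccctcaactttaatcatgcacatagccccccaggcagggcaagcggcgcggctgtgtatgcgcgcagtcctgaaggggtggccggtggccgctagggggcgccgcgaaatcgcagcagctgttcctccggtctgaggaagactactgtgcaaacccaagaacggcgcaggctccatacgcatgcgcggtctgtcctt

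All 4 promoters held the heat shock element core, 127 to 120 bases before the start in Foxd1, 112 to 105 in Wnt16, 104 to 97 in Hspa1a and 236 to 229 in Nob1. It was in 6.69% of the 32851 promoters of this length and in 5.16% of those of tested genes. The 4 genes were chosen by their values, so their promoters are no test against these shares. The antioxidant response element core was in the Wnt16 window alone of the 4, on the minus strand at 59 to 51 bases before the start, and in 10.2% of all promoters. An extended heat shock element, the core followed by any 2 bases and GAA, was in none of the 4 and in 0.466% of all promoters. Of the 10 named genes below 0, 5 had a promoter in the table, and 9 of the 10 above 0 did; these windows held the antioxidant response element core for Tfap2a and Ciapin1. The heat shock element core was in 2 of 9 promoters of the genes below 0 (Foxd1 and Ptgfr) and in 3 of 11 of those above 0 (Hspa1a, Hspa1b and Nob1), numbers too small to compare with these shares.

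Across 17264 genes tested, no gene had an interaction past an adjusted p of 0.05 in the edgeR quasi-likelihood test (0%). At an unadjusted p under 0.05, edgeR gave 1436 genes (8.32%), 912 above 0 (5.28%) and 524 below (3.04%). limma-voom also called 0 genes, with 2662 at an unadjusted p under 0.05, while DESeq2, the study's tool, called 24 (0.139%), 17 above 0 and 7 below. Of these 24, 17 are among the 20 genes of smallest edgeR p described below. The median interaction of all genes was 0.0034, and 50.5% of genes were above 0. In the 1436 genes the genotype difference had opposite signs on the 2 diets in 76.9%, against 38.2% of all genes tested, which follows in part from choosing them by the interaction. The 524 genes below 0 had larger and the 912 above 0 smaller values, with medians of -0.68 and 0.31. The 524 were also expressed at lower levels, with a median of their mean CPM of 9.46 against 32.1 in the 912.

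**Figure D1:**
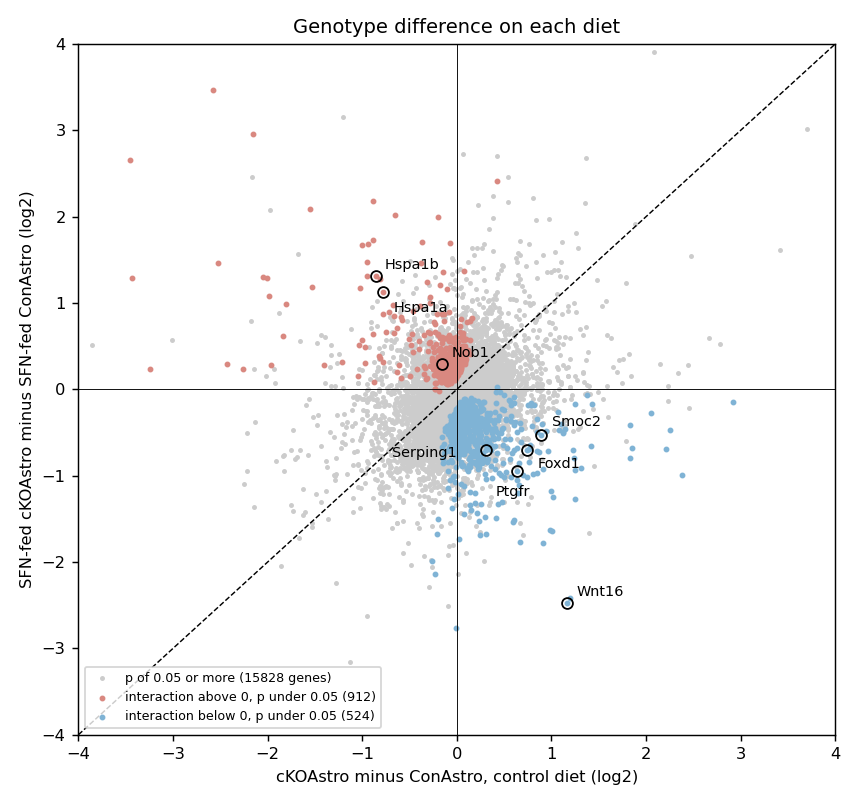
Each point is 1 of the 17264 genes, with the genotype difference for control-fed mice on the horizontal axis and for SFN-fed mice on the vertical axis, both as log2; the dashed line marks no interaction, and 5 genes lie beyond the axes at 4. The 524 genes below 0 at an unadjusted p under 0.05 (blue) sit mostly at the lower right and most of the 912 above 0 (red) at the upper left, the quadrants in which the sign differs between diets.

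Foxd1 (chr13:98354242-98359305, plus strand) encodes a forkhead transcription factor known from stromal and pericyte progenitors. Its level was 5.12, 4.68, 3.73 and 5.27 CPM in the ConAstro libraries and from 5.59 to 10.5 with a median of 7.79 in cKOAstro. On the SFN diet it was 10.2, 11.2, 7.06 and 7.72 CPM in ConAstro and from 3.46 to 7.36 with a median of 5.59 in cKOAstro. The order of the genotypes thus turned over: cKOAstro libraries were all above ConAstro libraries under control diet, and under SFN they were the lower ones, with a small overlap. Group means were 4.7 ± 0.695 (SD, n = 4), 7.83 ± 1.46 (n = 7), 9.06 ± 1.99 (n = 4) and 5.57 ± 1.4 CPM (n = 6). The genotype difference was 0.74 ± 0.19 (log2, SE) under control diet and -0.70 ± 0.19 under SFN. SFN-fed minus control was 0.95 ± 0.21 in ConAstro and -0.49 ± 0.17 in cKOAstro. The resulting interaction was -1.44 ± 0.27, with an edgeR adjusted p of 0.341, shared with Med20 and Wnt16 as the lowest of all genes, and a DESeq2 adjusted p of 0.00276; since Foxd1 was picked for this contrast, both only describe it.

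The Foxd1 value kept its direction: it was -1.55 to -1.32 with each of the 21 libraries left out in turn, and was -1.36 with all 23 libraries, -1.19 in the libraries with numbered names alone and -1.13 with the name prefix as a block. The lowest edgeR adjusted p of any gene was 0.806 without SFN-fed ConAstro 2 and 0.77 without SFN-fed ConAstro 3, its highest libraries. It was 0.99998 with the name prefix block. The 2 left-out libraries had 5.72 CPM under the SFN-fed ConAstro label and 4.9 under the SFN-fed cKOAstro label.

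Wnt16 (chr6:22288227-22298522, plus strand), a secreted Wnt ligand, was near the floor of detection, with 0 to 88 counts per library. Its level was 0.0543, 0.0816, 0.104 and 0.051 CPM in ConAstro and from 0.0945 to 0.336 with a median of 0.15 in cKOAstro. SFN-fed ConAstro libraries had 0.206, 0.4, 0.324 and 0.237 CPM, and SFN-fed cKOAstro libraries from 0 to 0.103 with a median of 0.0412. All SFN-fed cKOAstro libraries were below all SFN-fed ConAstro libraries, and all SFN-fed ConAstro libraries were above all ConAstro libraries. SFN-fed cKOAstro 7 had 0 counts of 86276988, which allows up to 3 counts or 0.0355 CPM at this depth, counting error only. The interaction was -3.64 ± 0.72, from a genotype difference of 1.16 ± 0.52 under control diet and -2.48 ± 0.49 under SFN. Its edgeR adjusted p was 0.341, and DESeq2 gave it no adjusted p. Leaving out single libraries gave -3.92 to -3.40, all 23 libraries -3.82 and the name prefix block -3.63. The left-out libraries had 0.47 CPM under the SFN-fed ConAstro label and 0.0463 under the SFN-fed cKOAstro label. These levels went with the labels and not with the genotype shown by Aldh7a1, Slc1a3 and Esr1. These values rest on few reads.

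**Figure D2:**
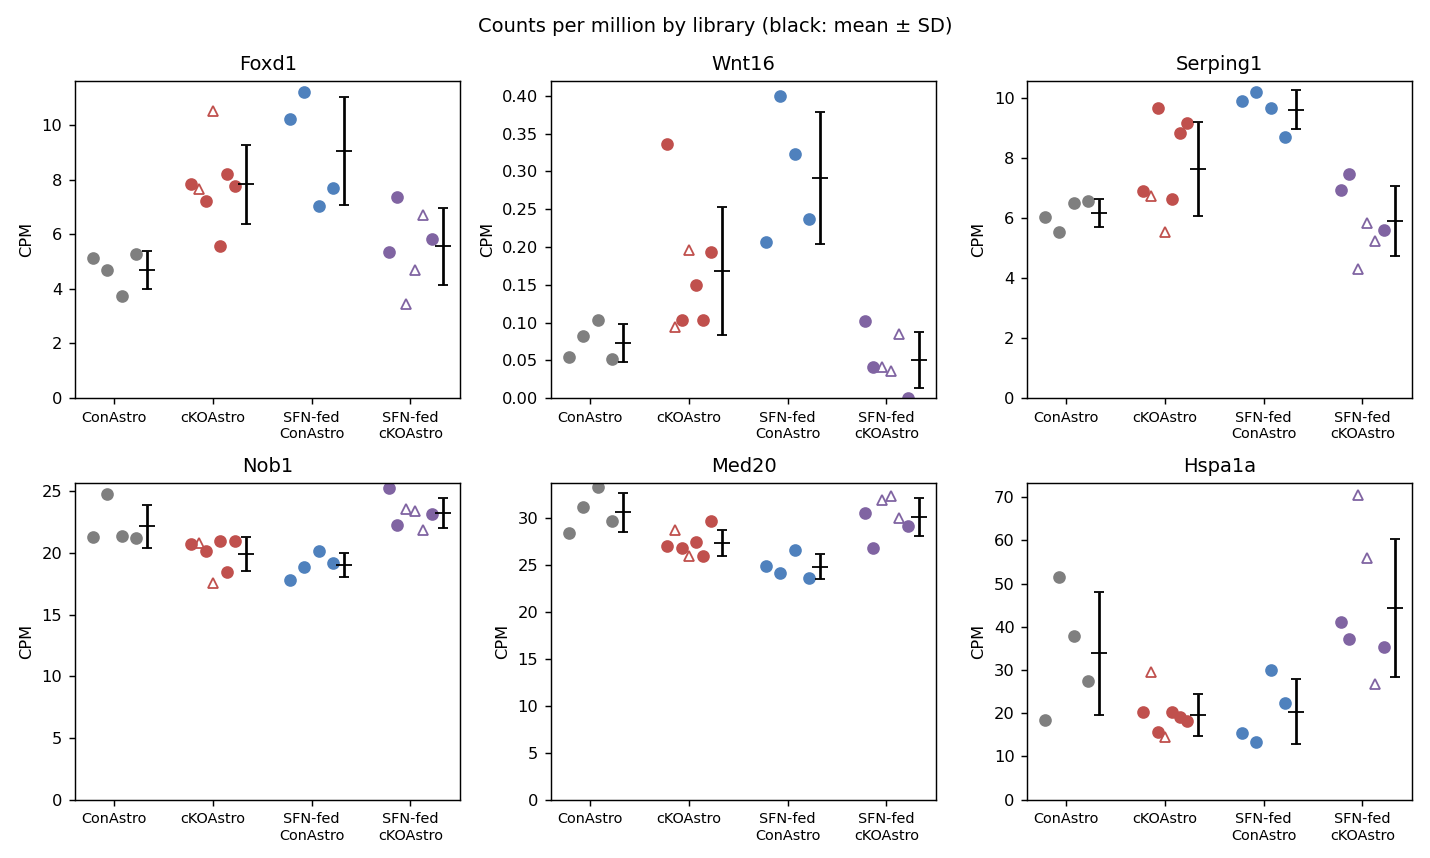
CPM (vertical axis, from 0) of 6 genes in each of the 21 libraries, by group; filled circles are libraries with numbered names, open triangles those named Astro, and black bars the mean ± SD. In the top row (Foxd1, Wnt16, Serping1) the SFN-fed ConAstro libraries sit high and the SFN-fed cKOAstro libraries low; in the bottom row (Nob1, Med20, Hspa1a) this order is turned over.

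The 10 genes of smallest p below 0, beside Wnt16, were Foxd1, Tfap2a, Serping1, Pcdhgb2, Ptgfr, Smoc2, Pcdhb19, Myadm, Gprc5c and Tmem200c. Tfap2a, an AP-2 transcription factor of neural crest and meninges, was at 0.704 to 1.19 (median 0.877) CPM in ConAstro, 0.866 to 1.53 (median 1.17) in cKOAstro, 1.51 to 1.87 (median 1.78) in SFN-fed ConAstro and 0.698 to 1.25 (median 0.916) in SFN-fed cKOAstro. Every SFN-fed ConAstro library was above every SFN-fed cKOAstro library and every ConAstro library, and the interaction was -1.32 ± 0.28 (edgeR adjusted p 0.359). Serping1, the inhibitor of the complement protease C1, was at 5.53 to 6.56 (median 6.28) CPM in ConAstro, 5.51 to 9.65 (median 6.9) in cKOAstro, 8.68 to 10.2 (median 9.77) in SFN-fed ConAstro and 4.31 to 7.48 (median 5.72) in SFN-fed cKOAstro. Here too the SFN-fed ConAstro libraries stood above both groups, with a genotype difference of 0.31 ± 0.15 under control diet and -0.70 ± 0.15 under SFN. Its interaction was -1.01 ± 0.22 (edgeR adjusted p 0.359).

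Ptgfr, the receptor for prostaglandin F, was at 0.802 to 0.964 (median 0.933) CPM in ConAstro, 0.931 to 1.8 (median 1.56) in cKOAstro, 1.13 to 2.55 (median 1.93) in SFN-fed ConAstro and 0.544 to 1.44 (median 1.06) in SFN-fed cKOAstro. These groups overlapped between the genotypes on both diets, and its interaction was -1.58 ± 0.37. Smoc2, a secreted calcium-binding matrix protein, was at 1.01 to 2.1 (median 1.26) CPM in ConAstro, 1.69 to 3.63 (median 2.46) in cKOAstro, 1.69 to 2.65 (median 2.4) in SFN-fed ConAstro and 1.23 to 2.45 (median 1.4) in SFN-fed cKOAstro, with an interaction of -1.43 ± 0.34. Neither gene's SFN-fed genotype groups were separated. Gprc5c, an orphan G protein-coupled receptor, had an interaction of -0.97 ± 0.24 from differences of 0.39 ± 0.17 and -0.58 ± 0.17. Tmem200c had -0.60 ± 0.15. The edgeR adjusted p of these 4 genes was 0.422 to 0.428.

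Members of the clustered protocadherins, adhesion proteins that give cells a surface identity, were 2 of the 10. Pcdhgb2 was at 8.58 to 11.4 (median 10.3) CPM in ConAstro, 9.52 to 12.5 (median 11.9) in cKOAstro, 13.8 to 15.1 (median 14.6) in SFN-fed ConAstro and 8.12 to 12.2 (median 8.73) in SFN-fed cKOAstro, with the SFN-fed ConAstro libraries above all ConAstro and all SFN-fed cKOAstro libraries and an interaction of -0.76 ± 0.17. Pcdhb19 had an interaction of -0.92 ± 0.22 and SFN-fed genotype groups that did not overlap. Both genes overlap same-strand neighbours in the annotation, so their counts are uncertain. Myadm, a membrane protein, was at 26.9 to 29.2 (median 27.9) CPM in ConAstro, 29.4 to 36.8 (median 31.3) in cKOAstro, 32.1 to 38.7 (median 33.1) in SFN-fed ConAstro and 24.7 to 32 (median 29.4) in SFN-fed cKOAstro. It was the only gene (0.00579%) in which all cKOAstro libraries were above all ConAstro libraries on the control diet and all below on the SFN diet, with an interaction of -0.44 ± 0.11.

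Among the genes above 0, Med20, a subunit of the Mediator complex, was at 28.4 to 33.2 (median 30.4) CPM in ConAstro, 25.9 to 29.6 (median 27) in cKOAstro, 23.6 to 26.6 (median 24.5) in SFN-fed ConAstro and 26.8 to 32.3 (median 30.2) in SFN-fed cKOAstro. All SFN-fed cKOAstro libraries were above all SFN-fed ConAstro libraries, which were in turn below all ConAstro libraries, and the interaction was 0.44 ± 0.09 (edgeR adjusted p 0.341, DESeq2 adjusted p 0.00276). Phospho1, a phosphatase best known from bone mineralisation, was at 1.67 to 2.32 (median 1.8) CPM in ConAstro, 1.37 to 1.72 (median 1.58) in cKOAstro, 1.23 to 1.44 (median 1.31) in SFN-fed ConAstro and 1.69 to 2.66 (median 1.99) in SFN-fed cKOAstro, with an interaction of 0.93 ± 0.19. Its groups were separated in the same way, and the annotation places Zfp652 and Abi3 over part of it.

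Nob1 (chr8:107412486-107425051, minus strand), an endonuclease that completes the small-subunit ribosomal RNA, was at 21.3, 24.8, 21.4 and 21.2 CPM in ConAstro and from 17.5 to 20.9 with a median of 20.7 in cKOAstro. On the SFN diet it was at 17.8, 18.9, 20.1 and 19.2 in ConAstro and from 21.8 to 25.3 with a median of 23.3 in cKOAstro. Its groups did not overlap in any of the 4 comparisons, between genotypes on either diet or between diets in either genotype. The interaction was 0.44 ± 0.09 (edgeR adjusted p 0.359). Ciapin1, a cytosolic iron-sulfur cluster assembly factor, shared the separation between genotypes on both diets, at 38.7 to 40.4 (median 39.2) CPM in ConAstro, 34.4 to 38 (median 36) in cKOAstro, 32.1 to 35.9 (median 33.8) in SFN-fed ConAstro and 36.4 to 45.7 (median 39.6) in SFN-fed cKOAstro, with 0.38 ± 0.08. Nob1 and Ciapin1 were the 2 genes (0.0116%) that were lower in cKOAstro on the control diet and higher on the SFN diet with no overlap on either; Ciapin1 shares bases with Coq9 on the other strand.

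Separation of groups on a single comparison was more frequent. The genotype groups were apart in 97 genes on the control diet (0.562%) and in 765 on the SFN diet (4.43%), and the diet groups in 918 genes in ConAstro (5.32%) and 19 in cKOAstro (0.11%). These groups differ in size, so the shares are not comparable with each other.

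The inducible Hsp70 chaperones had the largest values above 0 among the 20. Hspa1a (chr17:34969190-34972156, minus strand) was at 18.4, 51.6, 37.9 and 27.5 CPM in ConAstro and from 14.5 to 29.4 with a median of 19.2 in cKOAstro. On the SFN diet it was at 15.4, 13.4, 30.0 and 22.5 in ConAstro and from 26.8 to 70.4 with a median of 39.1 in cKOAstro. The groups overlapped between genotypes on both diets and the ConAstro libraries spread widely; the genotype difference was -0.78 ± 0.28 under control diet and 1.13 ± 0.30 under SFN. The interaction was 1.91 ± 0.41 (edgeR adjusted p 0.359, DESeq2 adjusted p 0.00812). Hspa1b, a near-identical copy from which reads can be split arbitrarily, was at 22.4 to 67.6 (median 47.4) CPM in ConAstro, 16.5 to 54.9 (median 21.2) in cKOAstro, 13.4 to 32.4 (median 19.7) in SFN-fed ConAstro and 33.7 to 85.9 (median 43.9) in SFN-fed cKOAstro, with 2.16 ± 0.51. Leaving out ConAstro 2, the highest ConAstro library for both, gave 1.64 and 1.92.

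The remaining named genes above 0 had small values set against tight groups. Fbxl19, an F-box protein that binds CpG islands, was at 39.1 to 45.4 (median 42.3) CPM in ConAstro, 35.4 to 41.8 (median 40.9) in cKOAstro, 33 to 38.8 (median 37.3) in SFN-fed ConAstro and 39.7 to 47.2 (median 45.5) in SFN-fed cKOAstro, and its interaction was 0.39 ± 0.09. Haus3, a subunit of the spindle-associated augmin complex, was at 9.93 to 11 (median 10.3) CPM in ConAstro, 8.52 to 10.8 (median 8.75) in cKOAstro, 7 to 7.9 (median 7.42) in SFN-fed ConAstro and 8.37 to 11.7 (median 9.98) in SFN-fed cKOAstro, with 0.59 ± 0.14. Ppp1r8, a nuclear regulator of a protein phosphatase, had 0.30 ± 0.07, and Samd1, a reader of unmethylated CpG islands, 0.41 ± 0.10. In all 4 genes the SFN-fed cKOAstro libraries were above every SFN-fed ConAstro library. Haus3 lies over part of Poln on the same strand.

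The name prefix as a block moved several of these values by over 1.5 times, with none of them past an adjusted p of 0.05 in edgeR. Tmem200c went to -0.0021, Ptgfr to -0.40, Pcdhgb2 to -0.39, Serping1 to -0.57, Gprc5c to -0.53 and Myadm to -0.25. Above 0, Phospho1 went to 0.30, Ciapin1 to 0.13, Ppp1r8 to 0.13, Fbxl19 to 0.22, Haus3 to 0.34 and Hspa1b to 1.43. Hspa1a (1.54), Nob1 (0.31), Med20 (0.33), Tfap2a (-0.96) and Smoc2 (-1.12) moved less. Since no prefix holds all 4 groups, this fit compares groups only through chains of prefixes, and prefix and group are largely confounded.

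Foxd1 was read beside other transcription factors that pattern the meninges and their mesenchyme. Of 15 such genes tested, 14 were below 0 and 9 were below 0 at an unadjusted p under 0.05 (3.04% of all genes), with a median of -0.74. Without Foxd1 itself this was 13 of 14 below 0, 8 of them at that p, and a median of -0.69. Zic1, a zinc-finger factor of meninges and cerebellum, had an interaction of -0.86 ± 0.25, Foxc1, a forkhead factor of meningeal mesenchyme, -0.79 ± 0.29, and Tbx18, a T-box factor of mural cells, -0.997 ± 0.35. Twist1, a factor of mesenchyme, had -1.08 ± 0.39. Foxf2, a forkhead factor of brain pericytes, had -0.74 ± 0.33, and Zic2 and Zic4 had -0.43 ± 0.17 and -0.58 ± 0.23. Only Foxd3, a neural crest factor, was above 0, with 4.62 ± 2.59. No gene of the list had an edgeR adjusted p under 0.341.

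The summed level of the list was 151 to 164 (median 155) CPM in ConAstro, 140.3 to 185 (median 173) in cKOAstro, 189 to 216 (median 202) in SFN-fed ConAstro and 96 to 208 (median 133) in SFN-fed cKOAstro. SFN-fed ConAstro libraries were all above all ConAstro and cKOAstro libraries. The SFN-fed cKOAstro libraries were low except SFN-fed cKOAstro 3, at 208 CPM. This is the one library of its group that shares a name prefix (147) with SFN-fed ConAstro libraries, and those 2, SFN-fed ConAstro 4 and 5, had 196 and 189 CPM. Within this prefix Foxd1 was likewise at 7.06 and 7.72 CPM in SFN-fed ConAstro and 7.36 in SFN-fed cKOAstro, so no lower level showed there for Foxd1 or the list. Wnt16 was lower within it, at 0.324 and 0.237 against 0.0416 CPM. With 1 library on one side there is no test within the prefix. The list's median interaction was below 0 in all 27 alternatives run on the lists, with -0.999 to -0.62 over the libraries left out in turn, -0.49 with the name prefix block and -0.51 in the numbered libraries alone. The count at an unadjusted p under 0.05 was 7 to 11 with single libraries left out, 10 with all 23 libraries, 3 in the numbered libraries alone and 2 with the name prefix block.

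Markers of mural cells, the pericytes and smooth muscle cells of vessel walls, had values in the same direction. All 11 were below 0, 7 of them at an unadjusted p under 0.05 (3.04% of all genes), with a median of -0.76. Pdgfrb, the receptor that holds pericytes on vessels, had an interaction of -0.82 ± 0.26, and Notch3, a receptor of vascular smooth muscle, -0.78 ± 0.31. The channel subunits Abcc9 and Kcnj8 had -1.02 ± 0.41 and -0.65 ± 0.28, Vtn, a matrix protein made by pericytes, -0.63 ± 0.26, and the smooth muscle contractile genes Myh11 and Acta2 -0.74 ± 0.32 and -0.76 ± 0.36. The edgeR adjusted p of these was 0.561 or higher. Summed mural markers were 1237 to 1869 (median 1735) CPM in ConAstro, 1518 to 2088 (median 1830) in cKOAstro, 1842 to 2389 (median 2109) in SFN-fed ConAstro and 881 to 2110 (median 1395) in SFN-fed cKOAstro, and none was at 0 in any library.

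Fibroblast markers were likewise low: all 11 were below 0, 4 at an unadjusted p under 0.05 (3.04% of all genes), with a median of -0.67. Col1a1 and Dcn, collagen and proteoglycan genes of fibroblasts, had interactions of -0.68 ± 0.18 and -1.32 ± 0.52. Mgp, a matrix inhibitor of calcification, had -0.67 ± 0.23, and Slc6a13, a GABA transporter of meningeal fibroblasts, -0.87 ± 0.32. Their sum was 269.9 to 421 (median 298) CPM in ConAstro, 267 to 366 (median 341) in cKOAstro, 320.5 to 438 (median 357) in SFN-fed ConAstro and 166 to 399 (median 261) in SFN-fed cKOAstro, and none was at 0 in any library. Whether RNA of mural cells or fibroblasts has a part in the values of Foxd1, Wnt16 or Tfap2a was not tested.

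SFN-fed cKOAstro 3, the prefix-matched library, was the highest of its group for both lists, at 2110 CPM for mural and 399 for fibroblast markers, against 2089 and 1842 CPM and 339.9 and 320.5 CPM in SFN-fed ConAstro 4 and 5. The mural count of 7 was 5 with all 23 libraries, 5 without cKOAstro 2, 2 in the numbered libraries alone, 0 with the name prefix block and as low as 3 without ConAstro 3, and the fibroblast count of 4 was 5, 5, 4, 0 and 4 or more. The medians with the name prefix block were -0.50 and -0.38. In the left-out libraries SFN-fed ConAstro 1 and SFN-fed cKOAstro 2, meningeal patterning genes summed to 152 and 120 CPM. Mural markers summed to 1540 and 1192 CPM and fibroblast markers to 406 and 236. SFN-fed cKOAstro 2, with ConAstro levels of Aldh7a1, was below every SFN-fed ConAstro library kept for all of these lists. SFN-fed ConAstro 1, with cKOAstro levels, was below them for meningeal and mural genes and within their range for fibroblast markers. Astrocyte markers, the cells the beads select, were present in all libraries, with 12 of 20 below 0, a median of -0.06 and a sum of 49802 to 55476 (median 51805) CPM in ConAstro, 41461 to 59476 (median 51453) in cKOAstro, 44537 to 57044 (median 51601) in SFN-fed ConAstro and 42510 to 56410 (median 50569) in SFN-fed cKOAstro. Sox9, an astrocyte transcription factor, had -0.36 ± 0.17, and Aqp4, the water channel of astrocyte endfeet, -0.34 ± 0.22.

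**Figure D3:**
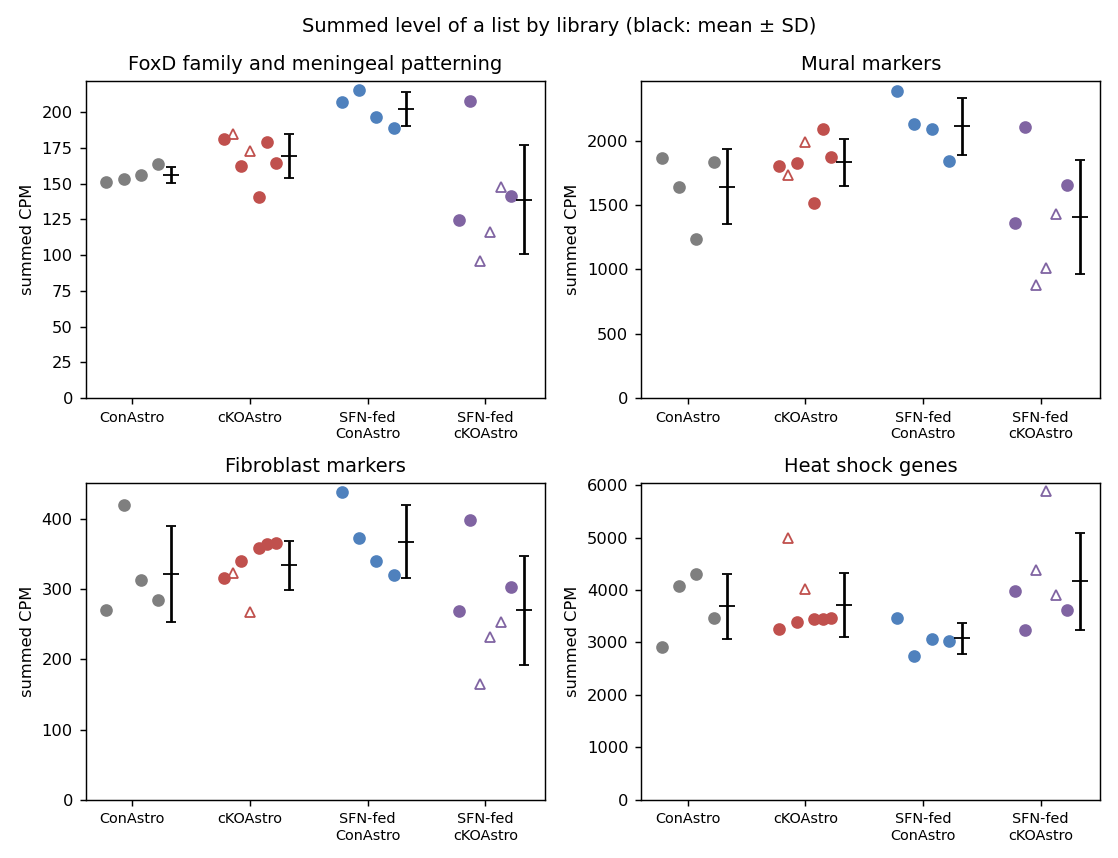
Summed CPM (vertical axis, from 0) of 4 gene lists in each of the 21 libraries, by group; filled circles are libraries with numbered names, open triangles those named Astro, black bars the mean ± SD. For meningeal patterning, mural and fibroblast genes SFN-fed ConAstro has the highest mean and SFN-fed cKOAstro the lowest, with 1 high library (SFN-fed cKOAstro 3, of prefix 147); heat shock genes show the turned-over order on the SFN diet.

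The other vascular and glial markers gave smaller median interactions. All 11 endothelial markers were below 0, with a median of -0.30 and 0 at an unadjusted p under 0.05. In the numbered libraries alone 10 were above 0 (median 0.21). Kdr, a VEGF receptor, had -0.47 ± 0.53 and Emcn, a sialoglycoprotein of capillaries and veins, -0.31 ± 0.37. Summed endothelial markers had medians of 394 CPM in ConAstro, 322 in cKOAstro, 639 in SFN-fed ConAstro and 304 in SFN-fed cKOAstro. The SFN-fed groups overlapped, at 556 to 881 CPM in ConAstro and 213 to 881 in cKOAstro. The list's median genotype difference was -0.39 under control diet and -0.68 under SFN. All 12 oligodendrocyte markers were above 0, with a median of 0.27 and 0 at that p, among them the myelin genes Mbp (0.41 ± 0.20) and Mobp (0.45 ± 0.32). In the numbered libraries alone 5 of the 12 were above 0 (median -0.02), and without SFN-fed cKOAstro 4, whose sum was 63834 CPM against 26852 to 37081 in the rest of its group, the median was 0.065. Markers of oligodendrocyte precursors had a median of -0.23, with Cspg4, also a pericyte proteoglycan, at -0.96 ± 0.34 and Pdgfra, their growth factor receptor, at -0.68 ± 0.65. Neuron markers were below 0 in 11 of 14, led by the GABA-synthesis genes Gad1 (-0.99 ± 0.53) and Gad2 (-0.90 ± 0.64).

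Microglia markers varied widely within groups, with summed levels of 1677 to 2546 (median 1991) CPM in ConAstro and 370.3 to 4117 (median 948) in SFN-fed cKOAstro, and interactions of -0.43 ± 0.94 for the purine receptor P2ry12 and 0.29 ± 0.88 for the complement gene C1qb. Among the libraries kept, the 5 named Astro were at 370.3 to 685 CPM and every numbered one at 1099 or more. The left-out libraries went the other way. SFN-fed ConAstro 1, named Astro, was at 3513 CPM, and SFN-fed cKOAstro 2, with a numbered name, at 419.9 CPM. The median interaction of the list was 0.12, but 0.56 in the numbered libraries alone, -0.26 with all 23 libraries and -1.43 with the name prefix block, where all 14 were below 0, 9 at an unadjusted p under 0.05. In that fit 383 of all 17264 genes were below 0 at that p. Choroid plexus and ependymal markers ranged over 46.8 to 4401 (median 79.4) CPM in ConAstro alone; Rarres2 had -0.29 ± 0.38 and Otx2, a choroid plexus homeobox factor, 0.83 ± 1.39. Of 6 red blood cell markers, 4 were at 0 in every library, and the erythroid genes Alas2 and Slc4a1 had 2.62 ± 1.05 and 0.26 ± 0.98, Alas2 at an unadjusted p under 0.05.

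**Figure D4:**
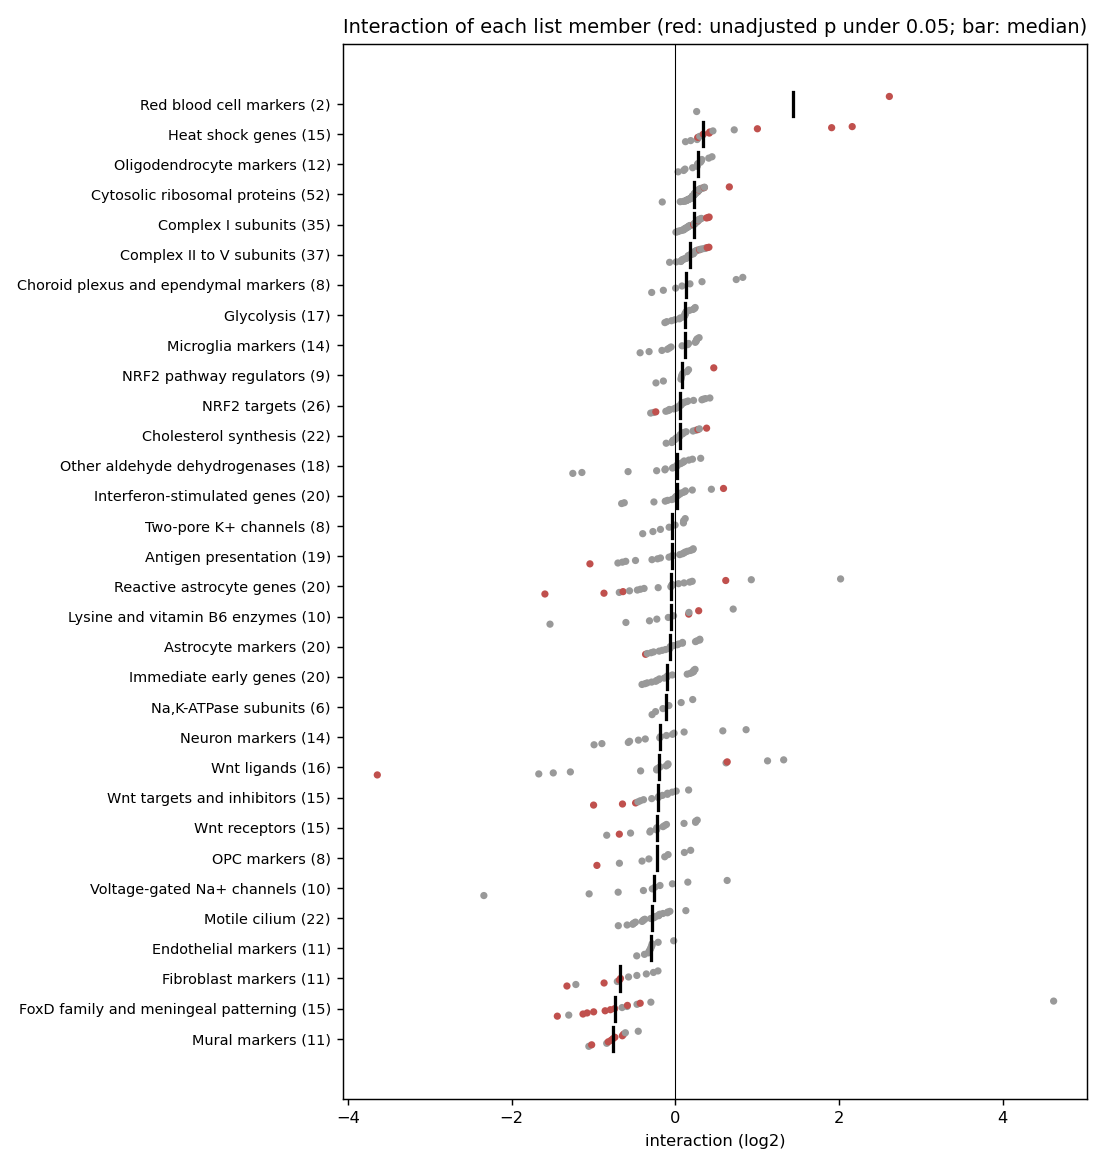
Interaction (horizontal axis, log2) of each tested member of 32 gene lists; the number tested is in parentheses, black bars are medians and red points have an unadjusted p under 0.05 in edgeR. Mural, meningeal patterning and fibroblast genes lie furthest to the left of 0, and all 15 heat shock genes lie to the right of it; the list with the highest median, red blood cell markers, holds 2 tested genes.

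Wnt genes were read ligand by receptor by target because Wnt16 had the most negative value named. Of 16 ligands tested, 12 were below 0, with a median of -0.19; besides Wnt16, the 1 at an unadjusted p under 0.05 was Wnt3, above 0, with 0.63 ± 0.26. Without Wnt16 the ligands were below 0 in 11 of 15. Of 15 receptors, 11 were below 0 and 1 at that p, Fzd6, a Frizzled receptor of planar cell polarity, with -0.68 ± 0.19; Ror2, a receptor for non-canonical Wnt signals, had -0.55 ± 0.30. Of 15 targets and inhibitors, 13 were below 0 and 3 at that p: Sfrp2, a secreted Wnt binder (-0.998 ± 0.39), Axin2, a feedback target (-0.48 ± 0.20), and Tcf7, a Wnt effector (-0.64 ± 0.29). Of all genes, 3.04% were below 0 and 5.28% above 0 at that p. The counts of 1 among ligands and receptors are near these shares and are no result about these lists. With the name prefix block the medians of the 3 Wnt lists were 0.18, 0.23 and 0.14, all turned in direction.

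Heat shock genes, chaperones that refold damaged proteins, were above 0 in all 15, with 7 at an unadjusted p under 0.05 (5.28% of all genes) and a median of 0.34. Without Hspa1a and Hspa1b all 13 remained above 0, 5 at that p, with a median of 0.33. Dnajb1, a co-chaperone of Hsp70, had 1.00 ± 0.28, and Dnaja1 0.34 ± 0.16. The mitochondrial chaperonins Hspd1 and Hspe1, which share a promoter region, had 0.28 ± 0.12 and 0.42 ± 0.16, and the cytosolic Hsp90ab1 0.42 ± 0.20. The median genotype difference of the list was -0.03 under control diet and 0.42 under SFN. Summed levels were 2917 to 4304 (median 3771) CPM in ConAstro, 3249 to 4998 (median 3453) in cKOAstro, 2743 to 3470 (median 3044) in SFN-fed ConAstro and 3243 to 5889 (median 3936) in SFN-fed cKOAstro.

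The heat shock count moved between 3, without ConAstro 3, and 11 with single libraries left out. It was 5 with all 23 libraries, 11 without cKOAstro 2 and 1 with the name prefix block, where 12 of 15 were above 0 and the median was 0.18. Immediate early genes, another set of rapidly induced genes, were below 0 in 13 of 20 with a median of -0.10 and 0 at an unadjusted p under 0.05, among them Egr1 at -0.29 ± 0.20 and Ier3 at -0.41 ± 0.34.

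NRF2 targets, the genes through which SFN is known to act, had interactions near 0. Of 26 tested, 18 were above 0 and 1 was below 0 at an unadjusted p under 0.05 (3.04% of all genes), with a median of 0.06. That gene was Gclc, the catalytic subunit of glutathione synthesis, with -0.24 ± 0.11; Gstp1, a glutathione transferase, had 0.42 ± 0.22. Summed NRF2 targets were 4800 to 4964 (median 4833) CPM in ConAstro, 4583 to 5299 (median 5107) in cKOAstro, 4820 to 5156 (median 4900) in SFN-fed ConAstro and 4790 to 7608 (median 5645) in SFN-fed cKOAstro. The SFN-fed minus control median was 0.0044 in ConAstro and 0.04 in cKOAstro, and SFN-fed cKOAstro libraries spread the most in the sum. All of them except SFN-fed cKOAstro 3 (4790 CPM) were above every SFN-fed ConAstro library in the sum. The highest was SFN-fed cKOAstro 4, named Astro, at 7608 CPM. Of 9 pathway regulators, Mafk, a small Maf partner of NRF2, had 0.47 ± 0.22 and Keap1 0.14 ± 0.07.

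Genes of the respiratory chain and ribosome were above 0 with small values. All 35 complex I subunits tested were above 0 (median 0.22, 5 at an unadjusted p under 0.05), as were 36 of 37 subunits of complexes II to V (median 0.18, 3 at that p) and 51 of 52 cytosolic ribosomal proteins (median 0.23, 3 at that p). Of all genes, 5.28% were above 0 at that p, so the last 2 counts are near the background and are no result about these lists. Examples were Ndufs6 (0.40 ± 0.16) and Ndufv1 (0.28 ± 0.11) of complex I, Cox7c (0.39 ± 0.15) and Cox6c (0.41 ± 0.17) of cytochrome oxidase, and Rpl34 (0.66 ± 0.23) and Rpl27 (0.35 ± 0.14). All 3 medians were below 0 with the name prefix block, at -0.07, -0.06 and -0.14, so their direction depends on that choice. Ribosomal protein genes have many processed copies, among which reads can be split.

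Enzymes around the deleted gene had a median of -0.05 over 10 genes, with Gcdh, glutaryl-CoA dehydrogenase of lysine breakdown, at 0.29 ± 0.12 and Dlst, a subunit of 2-oxoglutarate dehydrogenase, at 0.16 ± 0.07. The 18 other aldehyde dehydrogenases had a median of 0.02 and none at an unadjusted p under 0.05; Aldh18a1, of proline synthesis, had -0.23 ± 0.13 and Aldh16a1 0.31 ± 0.18. Cholesterol synthesis genes had a median of 0.06 over 22, with Pmvk (0.38 ± 0.15) and Fdps (0.28 ± 0.13) above 0 at that p (5.28% of all genes). Glycolytic genes had a median of 0.12 over 17, with Pfkl at 0.24 ± 0.12 and Pgk1 at 0.13 ± 0.10.

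The lists of Na,K-ATPase subunits, two-pore potassium channels and voltage-gated sodium channels held no gene at an unadjusted p under 0.05. Other ion channels and transporters were not read as a list. The channel subunits Abcc9 and Kcnj8, below 0 at that p, are given with the mural markers. The 6 Na,K-ATPase subunits had a median of -0.11 (Atp1b2 -0.24 ± 0.19, Atp1b3 0.21 ± 0.21), 8 two-pore potassium channels -0.04 (Kcnk3 -0.27 ± 0.25, Kcnk12 -0.40 ± 0.58) and 10 voltage-gated sodium channels -0.26 (Scn4a -2.34 ± 1.17, Scn9a -1.05 ± 0.61). Motile cilium genes were below 0 in 21 of 22 (median -0.28; Rfx3, their transcription factor, -0.26 ± 0.17, and Hydin, of the central pair, -0.70 ± 0.48), yet their median with the name prefix block was 1.06.

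Immune lists had few genes at an unadjusted p under 0.05. Ciita, the coactivator that switches on MHC class II, had -1.04 ± 0.30 and Erap1, a peptide-trimming protease, -0.28 ± 0.18, in an antigen presentation list with a median of -0.04, which was 0.20 in the numbered libraries alone and -0.57 with the name prefix block. The genes of smallest p among 20 interferon-stimulated genes were Ifi27 (0.59 ± 0.19) and Usp18 (0.44 ± 0.28), in a list with a median of 0.02. Of 20 reactive astrocyte genes, 3 were below 0 at an unadjusted p under 0.05 and 1 above: S1pr3, a sphingosine-phosphate receptor (-0.87 ± 0.22), Timp1, a metalloproteinase inhibitor (-1.59 ± 0.48), and Cp, ceruloplasmin (-0.64 ± 0.20), against Serpina3n, a protease inhibitor (0.62 ± 0.29). Over all genes, 3.04% were below 0 and 5.28% above 0 at that p, and the count of 1 above 0 is near its share. The list's median was -0.05, and -0.42 without ConAstro 3. Of the 32 lists, the median changed sign in at least 1 of the 27 alternatives for all except the meningeal patterning, mural, fibroblast, heat shock, NRF2 target, Na,K-ATPase, voltage-gated sodium channel, neuron and red blood cell lists.

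**Figure D5:**
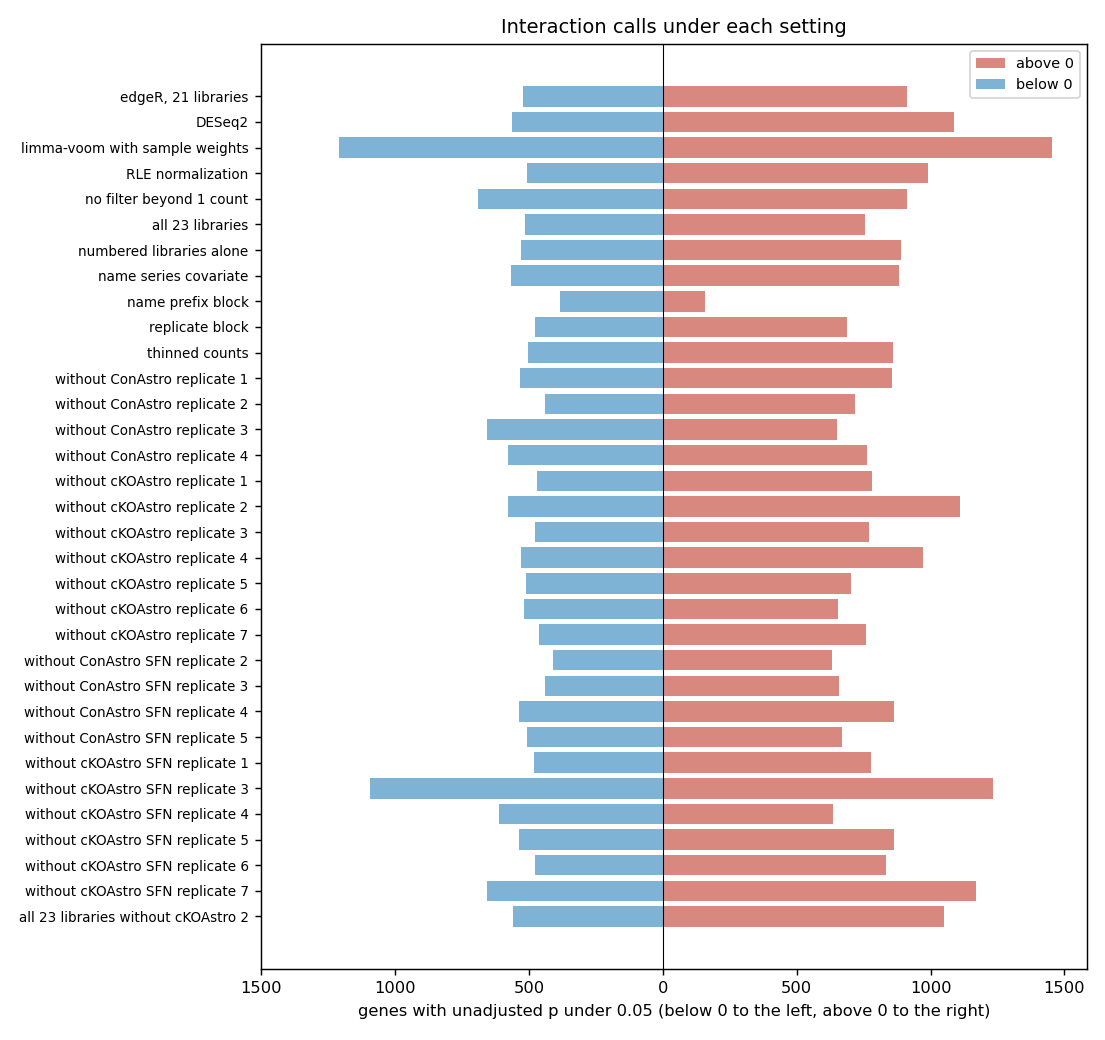
Number of genes with an unadjusted interaction p under 0.05 (horizontal axis; below 0 to the left, above 0 to the right) under each setting, from edgeR except where another tool is named. Most bars lie near the 524 below and 912 above 0 of the first row; the name prefix block has 158 above 0, and limma-voom and the fit without SFN-fed cKOAstro 3 have the most genes.

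The direction of the genes at an unadjusted p under 0.05 also depended on how libraries were grouped. With the name prefix as a block, 541 genes were at an unadjusted p under 0.05 and 158 of these (29.2%) were above 0, against 912 of 1436 (63.5%) without it. The share was 49.7% without ConAstro 3, 50.9% without SFN-fed cKOAstro 4 and 54.6% in limma-voom. Without SFN-fed cKOAstro 3 the count was 2327, and the lowest edgeR adjusted p was then 0.0659.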

How the data were processed

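Poly(A) RNA of cortical astrocytes, taken with anti-ACSA-2 beads after papain dissociation, was sequenced paired-end by the study. The deposited values are raw counts per gene that the authors obtained by FastQC and by STAR alignment to mm10 with its own gene counting; the STAR version, annotation and strand setting are not given in the sources used here. Of 24411 symbols, 23376 matched GENCODE M21, from which coordinates were taken. Groups came from the labels, and 2 libraries were left out by the rule on Aldh7a1, Slc1a3 and Esr1. Members, lists and the rule were chosen with earlier results of these data known. Counts were fitted with edgeR 4.0.16 (R 4.3.3; TMM; filterByExpr by group with a minimum count of 10 and total of 15; quasi-likelihood test; Benjamini-Hochberg over 17264 genes) with 1 coefficient per group, and the interaction contrast was tested at an adjusted p of 0.05. The effects behind it come from the same fit. Alternatives were DESeq2 1.42.0, limma-voom (limma 3.58.1) with sample weights, RLE scaling, no filter, all 23 libraries, numbered libraries alone, the name series, name prefix and replicate number as terms, counts thinned to 74771451 per library, and each library left out. CPM used TMM scaling of the 21 libraries, or of all 23 for those left out. Named genes were Foxd1, Wnt16, the 3 genes of the rule, the 10 of smallest p in each direction with a mean of at least 1 CPM, and the 2 of smallest p in each of 32 lists (561 genes, 555 in the table); further list members past an unadjusted p of 0.05 were named after their values were seen, as was Foxd3. Some items are not reported here. Libraries of a group differed beyond sampling noise (chi-square per degree of freedom at least 42.8). The depth of 74771451 to 391701247 counts makes counting error small except for genes such as Wnt16; limits from a count of 0 cover counting error only. The fit was tested on simulated data. Promoters are from RefSeq (GRCm38.p6).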

Additional observations from a re-analysis of the deposited data

Results flagged for a closer look

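Single libraries stood apart from the rest of their group in 8 of the 104 groups of values examined by Dixon's criterion, which chance alone flags in about 1 of 20. Wnt16 was at 0.336 CPM in cKOAstro 1, against 0.0945 to 0.196 in the other cKOAstro libraries. Smoc2 was at 2.45 CPM in SFN-fed cKOAstro 5, against 1.23 to 1.66. Tmem200c was at 43.5 CPM in ConAstro 4, against 32.5 to 34.1, and Nob1 at 24.8 CPM in ConAstro 2, against 21.2 to 21.4. In cKOAstro 2 Hspa1a was at 29.4 CPM (14.5 to 20.4 in the other libraries), Hspa1b at 54.9 (16.5 to 24.4) and Xist at 1541 (0.179 to 0.586). SFN-fed ConAstro 3 held 219904257 counts in all, against 75992248 to 83092604 in the other libraries of its group. Without cKOAstro 2 the interaction of Hspa1b was 2.47 and that of Hspa1a 2.03, and without cKOAstro 1 that of Wnt16 was -3.40.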

How the results depend on the processing

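The edgeR count of 0 called genes was the same under each of the alternatives in edgeR and in limma-voom and in each of the 21 fits without 1 library, whose lowest adjusted p was 0.0659. DESeq2 called 24 genes. Chosen after seeing the data, DESeq2 called 3 with all 23 libraries, 58 without cKOAstro 2 and 0 with the name prefix block (699 at an unadjusted p under 0.05), and edgeR called 0 with all 23 libraries less cKOAstro 2. The count at an unadjusted p under 0.05 was 1436, against 2662 in limma-voom, 541 with the name prefix block and 1040 to 2327 with single libraries left out, the highest without SFN-fed cKOAstro 3; the cause was not tested. With the replicate block, edgeR called 0 genes and gave 1165 at that p, but same-numbered libraries of different groups shared only a number: over 23 such pairs their deviations from the group means correlated at -0.20 to 0.25 (median -0.034), with 6 over 0.1. None of the named genes below had an edgeR adjusted p under 0.05 in any setting. The sign turned over with the name prefix block for Gclc (0.12), Keap1 (-0.033), Ndufs6 (-0.0066), Ndufv1 (-0.017), Cox6c (-0.022), Aldh16a1 (-0.028), Scn4a (3.73), Ror2 (0.49), Axin2 (0.14), Rfx3 (0.41), Hydin (0.94), Egr1 (0.49), Rpl27 (-0.14), Pmvk (-0.15), Pfkl (-0.065), Pgk1 (-0.048), C1qb (-1.44), Pdgfra (0.81), Kdr (0.80) and Rarres2 (0.58). Other changes of sign came in the numbered libraries alone for Atp1b3 (-0.0049), Ier3 (0.090), Emcn (0.16), Slc4a1 (-0.59), in limma-voom for C1qb (-0.65), Slc4a1 (-0.59), with all 23 libraries for C1qb (-0.069), Otx2 (-0.12), with the replicate block for C1qb (-0.19), with the name series as a covariate for Slc4a1 (-0.032), and on leaving out single libraries for C1qb (-0.19 to 0.56, below 0 without SFN-fed cKOAstro 1 or 7), Slc4a1 (-0.43 to 1.32, below 0 without SFN-fed cKOAstro 4) and Otx2 (-0.87 to 2.42, below 0 without ConAstro 2). The 4 ConAstro and 4 SFN-fed ConAstro libraries limit the precision of every interaction: in simulated data with these library sizes, 58% of genes changed by 1 on the log2 scale and 84% of those changed by 2 were called, of 100 each. Among unchanged genes 3 were called. The simulated libraries were independent, with no shared differences by name prefix or name series and with changes in SFN-fed cKOAstro alone. These shares need not hold for the real data.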

Other observations

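DESeq2 called 7 genes above 0 beyond those described in the report; they were chosen after their values were seen, and edgeR gave each an adjusted p of 0.444 or higher. Exosc7, a subunit of the RNA exosome, had a DESeq2 interaction of 0.29 ± 0.07 (log2, SE), and Mak16, a factor of large-subunit ribosome assembly, 0.31 ± 0.08. Rnmtl1, a methyltransferase of mitochondrial ribosomal RNA, had 0.44 ± 0.11. Abcb6, a porphyrin transporter, had 0.29 ± 0.07, and Rdh13, a mitochondrial retinol dehydrogenase, 0.34 ± 0.08. Phf23, a PHD finger protein, had 0.39 ± 0.10, and 1500012F01Rik 0.70 ± 0.18. All 7 had a DESeq2 adjusted p of 0.0275 to 0.049995.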
